A study of Homo sapiens with 4 samples.

Results

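The HOX cluster genes are the homeobox genes of the 4 human HOX clusters, here the genes whose symbol is HOXA, HOXB, HOXC or HOXD followed by a number. This rule found 39 of 58174 genes in the deposited table, 11 of the HOXA cluster on chromosome 7, 10 of HOXB on chromosome 17, 9 of HOXC on chromosome 12 and 9 of HOXD on chromosome 2. Their expression was measured by RNA sequencing in SW1990 and PANC-1, both established human pancreatic cancer cell lines, with 1 library of unirradiated cells and 1 library of cells given 10 Gy of X-rays from each line. Both lines were used at passages 14 to 16, and each was grown in its own culture medium, DMEM in the case of PANC-1, so that line and medium cannot be told apart. The time between radiation and RNA collection is not given in the sources used here. The libraries of SW1990 held 17851815 (unirradiated) and 18305682 (irradiated) counts on genes, and those of PANC-1 held 23323266 and 20026595. Every radiation comparison within a line therefore sets 1 library against 1 library, has no replicate check and compares those libraries rather than the conditions.

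HOX genes encode transcription factors that give cells their identity along the head to tail axis of the embryo. Within a cluster the genes lie in the order in which they are used along that axis, from number 1 (anterior) to number 13 (posterior), and genes that share a number in different clusters are paralogues. Polycomb proteins keep clusters silent and Trithorax proteins keep them active, often over stretches of neighbouring genes, and many tumour lines retain or gain HOX expression. Here members 1 to 3 are called anterior, 4 to 8 central and 9 to 13 posterior.

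The lines showed epithelial markers at levels that differed between them. Of 8 epithelial markers, 7 had at least 1 FPKM, the number of fragments scaled to transcript length and library size, in all 4 libraries, led by the keratin KRT8 and followed by KRT18. Their summed level in SW1990 cells was 2983 FPKM before and 3777 FPKM after radiation, and in PANC-1 cells 1461 and 1690 FPKM. The adhesion gene CDH1 was the exception, with 140 and 239 FPKM in SW1990 cells and 0.673 and 1.21 FPKM in PANC-1 cells. EPCAM, another epithelial surface gene, was at 217 and 218 FPKM in SW1990 and at 2.29 and 2.81 FPKM in PANC-1 cells. MUC1 went the other way, with 2.00 and 3.23 FPKM in SW1990 and 6.61 and 13.7 FPKM in PANC-1 cells. KRT7 was at 5.79 and 6.02 FPKM in SW1990 and at 6.36 and 5.02 FPKM in PANC-1 cells. In the comparison of the lines given below, 5 of the 8 were called higher in SW1990 and 1 higher in PANC-1 cells. Over all genes these shares were 21.4% and 22.2%. Of 8 fibroblast markers, 4 had no read in any library (COL1A2, DCN, PDGFRA and FAP) and the list summed to 2.96, 3.88, 9.32 and 11.8 FPKM in the same order of libraries, led by PDGFRB in unirradiated SW1990 cells and by the collagen gene COL1A1 in the other libraries, and PDGFRB was called lower after radiation in SW1990 cells (129 and 63 counts, -1.04, but -0.60 by FPKM, under a fold of 2). The list of 7 leukocyte and endothelial markers summed to 0.999, 1.25, 18.8 and 14.0 FPKM, most of it the lysosomal gene CD68. The leukocyte genes PTPRC and CD3E were at or near 0. In bulk RNA, fewer cells of a type and less RNA per cell cannot be told apart.

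In these cells 30 of the 39 members reached 1 FPKM in at least 1 library and 9 reached it in all 4. Another 11 members reached it in SW1990 cells only and 8 in PANC-1 cells only. The lines kept HOXB in common, SW1990 added HOXA, PANC-1 added HOXC, and HOXD was low or undetected in both.

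**Figure D1:**
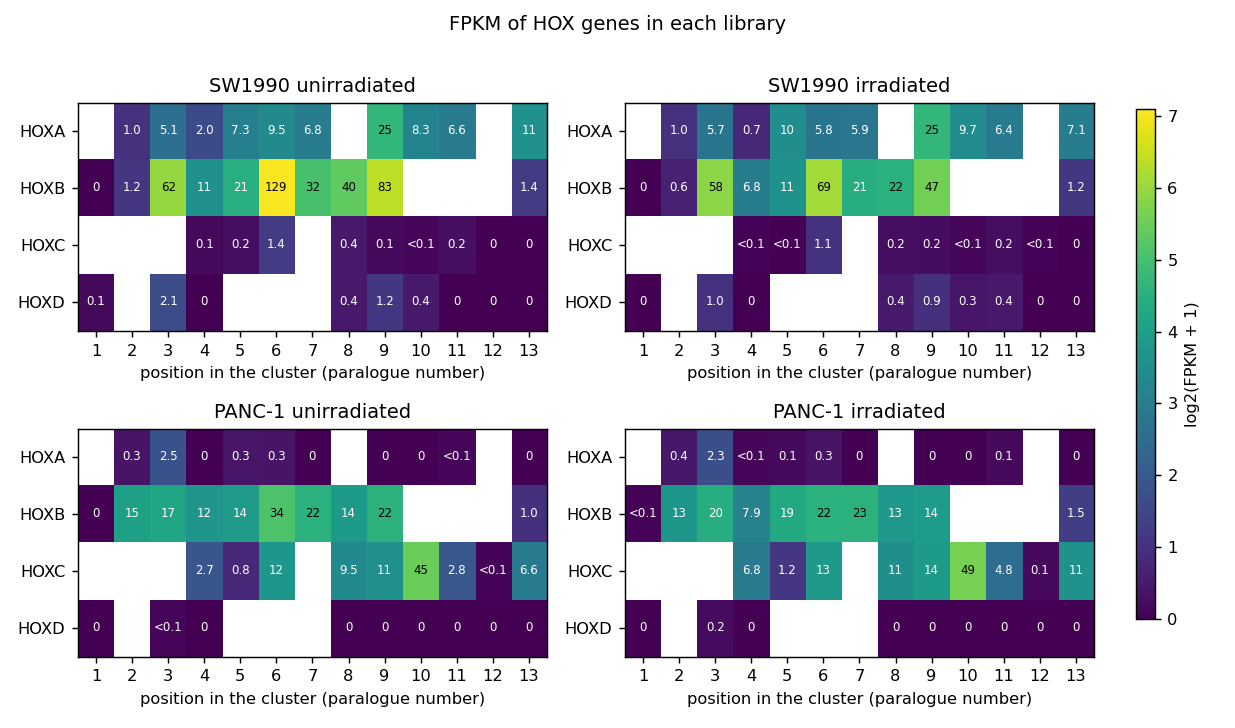
FPKM of HOX genes in each of the 4 libraries, with clusters in rows, paralogue number in columns, colour as log2(FPKM + 1) and white where a cluster has no gene of that number or none is plotted. The HOXA row is filled in SW1990 and empty from HOXA4 on in PANC-1, the HOXC row is the reverse, and the HOXB row is filled in both.

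Summed over its members, HOXB gave 80.9% of all HOX FPKM in unirradiated SW1990 cells and 61.4% in unirradiated PANC-1 cells. HOXA gave 17.7% of the sum in SW1990 and 2.16% in PANC-1 cells. For HOXC the order was turned, with 0.534% in SW1990 and 36.4% in PANC-1 cells. The HOXD share was 0.908% and 0.0294%. The sum over the 39 members was 469 FPKM without and 320 FPKM with radiation in SW1990 cells, and 248 and 249.7 FPKM in PANC-1 cells.

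Across all genes, the lines were compared with edgeR's quasi-likelihood test in a fit of the 4 libraries with line and radiation as terms, where the pair of libraries of a line stood as its replicates. Of 18180 genes tested, 21.4% were called higher in SW1990 and 22.2% higher in PANC-1 cells at an adjusted p below 0.05. Among the HOX genes 32 were tested, 16 were called higher in SW1990, 10 were called higher in PANC-1 cells and 6 were not called. By cluster, 9 of 11 HOXA genes and 4 of 4 tested HOXD genes were called higher in SW1990 cells, and 8 of 8 tested HOXC genes were called higher in PANC-1 cells. HOXB split into 3 genes higher in SW1990, 1 higher in PANC-1 and 5 not called. Leaving out 1 library ended, in at least 1 case, the call of HOXA3, HOXA4, HOXB6, HOXB9, HOXC5 or HOXD3, among others, always with the direction kept. HOXB1, HOXC12, HOXD1, HOXD4, HOXD11, HOXD12 and HOXD13 had too few reads to be tested.

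In the HOXA cluster, PANC-1 cells had reads of the anterior genes HOXA2 and HOXA3. HOXA2 was at 1.03 and 1.004 FPKM in SW1990 and at 0.305 and 0.361 FPKM in PANC-1 cells, a difference that was not called (log2 1.42, SE 0.46, adjusted p = 0.0618). HOXA3 was at 5.08 and 5.74 FPKM in SW1990 and at 2.46 and 2.28 FPKM in PANC-1 cells (log2 1.35, SE 0.31, adjusted p = 0.0255). Both genes thus had reads in every library.

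From HOXA4 on, the PANC-1 libraries held few or no reads. HOXA4 was at 2.01 and 0.747 FPKM in SW1990 cells, against 0 and 0.0863 FPKM in PANC-1 cells. HOXA5, a gene of the lung and gut mesenchyme in development, was at 7.33 and 10.2 FPKM in SW1990 and at 0.34 and 0.112 FPKM in PANC-1 cells (33.5-fold by reads, 95% counting interval 21.5 to 55.2, adjusted p = 0.00353). HOXA6 was at 9.48 and 5.82 FPKM in SW1990 and at 0.292 and 0.308 FPKM in PANC-1 cells. For these central genes both SW1990 libraries lay above both PANC-1 libraries. The share of all genes separated in this way is not given here.

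For HOXA7, HOXA9, HOXA10 and HOXA13 no read was counted in either PANC-1 library, so their folds are lower bounds against a floor of 3 counts over both libraries of the line. HOXA7 was at 6.83 and 5.92 FPKM in SW1990 cells, at least 180-fold higher. HOXA9, a posterior gene best known from leukaemia, was the highest of the cluster with 24.9 and 24.8 FPKM, at least 475-fold higher. HOXA10, which is needed in the uterus, was at 8.30 and 9.73 FPKM, at least 228-fold higher.

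HOXA11 had a few reads in PANC-1 cells (6 and 8 counts) against 333 and 330 counts in SW1990 cells, a log2 difference of 5.65 (SE 0.37, adjusted p = 0.00122). HOXA13, the last gene of the cluster and a gene of hindgut and limb ends, had 1067 and 666 counts in SW1990 cells (11.04 and 7.12 FPKM) and was at least 621-fold higher there (adjusted p = 0.0011). The gene lies on the minus strand at chr7:27193503-27200106 of GRCh38. The 250 bases before its RefSeq start (GRCh38.p14, minus strand, chr7:27200092-27200341) are shown because this gene gave the highest of the bounds and has the most CG dinucleotides of the HOX start windows found, with every CG dinucleotide in capitals.

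HOXA13 upstream: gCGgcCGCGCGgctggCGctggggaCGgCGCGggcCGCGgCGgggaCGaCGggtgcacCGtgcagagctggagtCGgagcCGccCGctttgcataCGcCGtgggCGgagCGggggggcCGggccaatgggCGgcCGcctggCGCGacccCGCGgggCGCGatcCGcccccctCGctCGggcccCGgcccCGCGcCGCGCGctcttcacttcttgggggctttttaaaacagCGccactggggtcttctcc

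That window holds 40 CG dinucleotides. RefSeq start windows were found for 20 of the 39 members, 26 different windows in all. Of HOXB only HOXB1 was among these members, and of HOXC only HOXC4 and HOXC5, while HOXA3 had several windows. The HOX windows found had a median of 19.5 CG dinucleotides in 250 bases. Over the 34943 windows of all genes the median was 11. The letters TATAAA on the strand of the gene occurred in 11.5% of the HOX windows (those of HOXD13, HOXA9 and HOXA10) and in 6.82% of all windows. These are counts of letters in the reference and say nothing of the state of either line.

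Beyond HOXA13, the pattern continued into the neighbouring transcripts. HOTTIP, a noncoding RNA that starts opposite HOXA13, had 694 and 783 counts in SW1990 and none in PANC-1 cells, at least 529-fold higher. The homeobox gene EVX1, the next coding gene, had 290 and 214 counts against none, at least 181-fold higher. HIBADH, a valine catabolism enzyme beyond EVX1, was at 13.8 and 14.1 FPKM in SW1990 and at 14.5 and 12.97 FPKM in PANC-1 cells and was not called (adjusted p = 0.674). On the anterior side, HOTAIRM1, a noncoding RNA at the anterior end, was at 3.28 and 3.68 FPKM in SW1990 and at 5.63 and 5.59 FPKM in PANC-1 cells and was not called (adjusted p = 0.12). SKAP2, an adaptor protein gene beyond it, was at 4.55 and 5.05 FPKM in SW1990 and at 10.8 and 9.72 FPKM in PANC-1 cells (log2 difference -1.62, adjusted p = 0.00475).

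**Figure D2:**
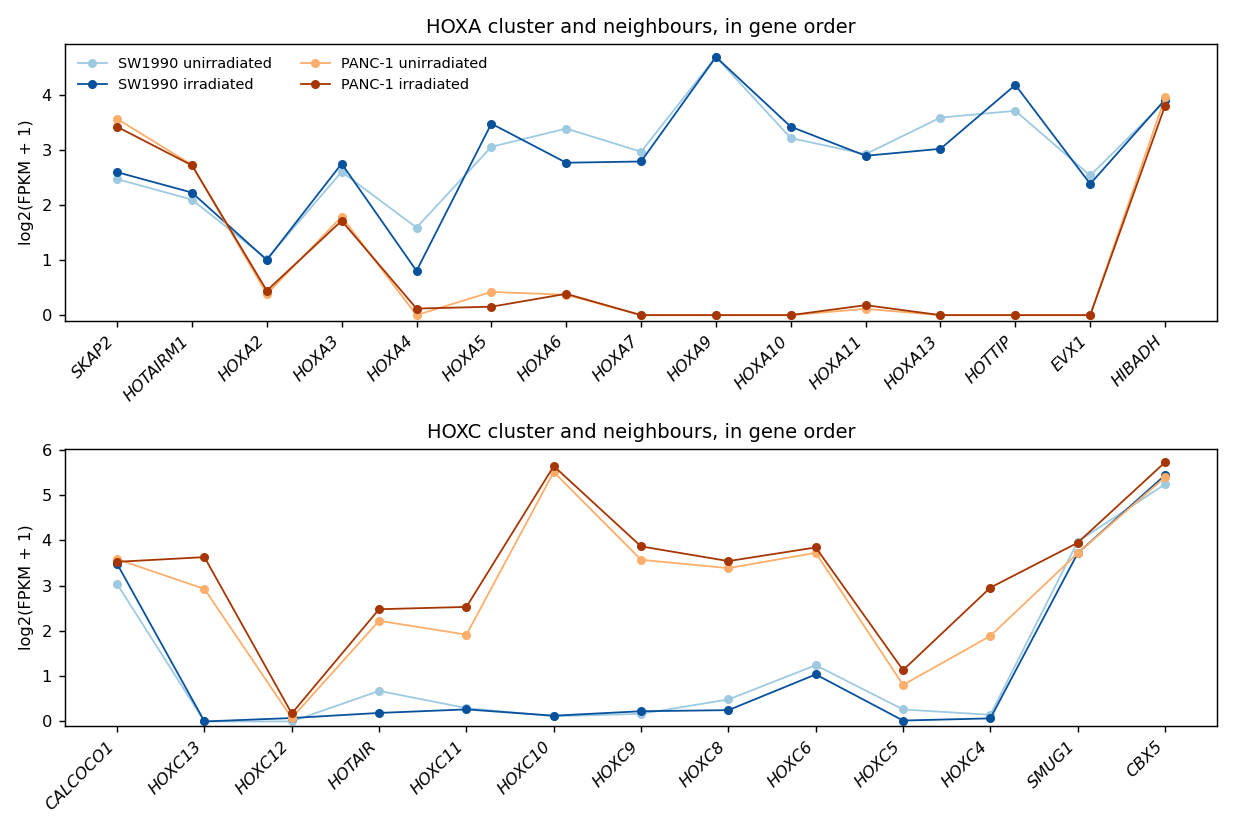
Level of the genes of the HOXA and HOXC clusters and their neighbours in gene order, as log2(FPKM + 1), 1 line per library. In HOXA the PANC-1 lines lie at or near 0 from HOXA4 to EVX1 while SKAP2 and HIBADH outside the cluster are expressed in both, and in HOXC the SW1990 lines stay near 0 from HOXC13 to HOXC9.

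The HOXC cluster was expressed in PANC-1 cells. HOXC10 was the highest HOX gene of these cells, with 44.6 and 48.95 FPKM in PANC-1 cells and 0.0833 and 0.0922 FPKM in SW1990 cells (log2 difference -8.27, SE 0.28, adjusted p = 0.00076). HOXC9 was at 10.9 and 13.6 FPKM in PANC-1 and at 0.123 and 0.169 FPKM in SW1990 cells (100-fold by reads, counting interval 52.6 to 220). HOXC8, a trunk gene, was at 9.47 and 10.7 FPKM in PANC-1 and at 0.4 and 0.189 FPKM in SW1990 cells (log2 difference -5.26, SE 0.40). The posterior end was expressed as well.

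HOXC13, known from hair and nail formation, was at 6.61 and 11.4 FPKM in PANC-1 cells and had no read in SW1990 cells, at least 358-fold higher. HOXC11 was at 2.78 and 4.78 FPKM in PANC-1 and at 0.227 and 0.203 FPKM in SW1990 cells (log2 difference -4.13, SE 0.36). HOXC12, which lies between them, stayed under 0.13 FPKM in every library, with 0, 5, 6 and 11 counts. The cluster was therefore not filled gene by gene.

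HOXC6 was the HOXC gene that SW1990 cells also held, with 1.37 and 1.06 FPKM against 12.2 and 13.4 FPKM in PANC-1 cells (10.1-fold by reads, counting interval 8.44 to 12.3, adjusted p = 0.00127). HOXC4 was at 0.107 and 0.0484 FPKM in SW1990 and at 2.71 and 6.77 FPKM in PANC-1 cells (44.7-fold by reads, counting interval 20.3 to 123). HOXC5 was at 0.202 and 0.0139 FPKM in SW1990 and at 0.75 and 1.20 FPKM in PANC-1 cells (9.72-fold by reads, counting interval 4.91 to 21.9). Reads of HOXC4, HOXC5 and HOXC6 cannot be fully separated. In the GENCODE 29 annotation these 3 genes, HOXC9, HOXC10 and the clone-named loci AC012531.2 and AC012531.3 form a chain of genes that share exonic bases on the same strand. HOXC4 and HOXC5 also have a common RefSeq start, and the 250 bases before it (GRCh38.p14, plus strand, chr12:54016638-54016887) are shown for that reason with CG dinucleotides in capitals, of which there are 14.

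HOXC4 and HOXC5 upstream: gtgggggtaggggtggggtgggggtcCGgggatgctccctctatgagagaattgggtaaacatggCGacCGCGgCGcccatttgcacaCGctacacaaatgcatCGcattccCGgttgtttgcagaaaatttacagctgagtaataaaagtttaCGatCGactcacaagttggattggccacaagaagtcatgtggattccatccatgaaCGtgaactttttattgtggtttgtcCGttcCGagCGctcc

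Around HOXC, the noncoding RNA HOTAIR, which lies on the strand opposite to the HOXC genes, had 25 and 8 counts in SW1990 and 185 and 141 counts in PANC-1 cells (log2 difference -3.30, adjusted p = 0.008). HOXC13-AS had 116 and 106 counts in PANC-1 cells and none in SW1990 cells. The coding neighbours were present in both lines. SMUG1, a DNA repair glycosylase, was at 14.7 and 12.2 FPKM in SW1990 and at 12.2 and 14.5 FPKM in PANC-1 cells (adjusted p = 0.723). CBX5, the gene of heterochromatin protein HP1 alpha, was the most abundant neighbour of any cluster, with 36.9, 42.5, 41.1 and 52.0 FPKM.

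HOXB was the cluster that the lines had in common. The 3 HOXB genes called higher in SW1990 cells were the most abundant of the cluster in those cells. HOXB6 was at 129 and 68.9 FPKM in SW1990 and at 34.0 and 22.1 FPKM in PANC-1 cells (log2 difference 1.72, SE 0.17, adjusted p = 0.003). HOXB9 was at 82.8 and 47.2 FPKM in SW1990 and at 22.5 and 13.8 FPKM in PANC-1 cells (log2 difference 1.66, SE 0.14, adjusted p = 0.00196). HOXB3 was at 61.6 and 57.6 FPKM in SW1990 and at 17.2 and 20.3 FPKM in PANC-1 cells (log2 difference 1.32, SE 0.15, adjusted p = 0.00381). In each case both SW1990 libraries lay above both PANC-1 libraries, and the share of all genes that do so is not given here.

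HOXB2, a gene of the hindbrain, went the other way, with 1.18 and 0.559 FPKM in SW1990 and 15.3 and 12.6 FPKM in PANC-1 cells (20.7-fold by reads, counting interval 15.6 to 27.9, adjusted p = 0.00238). The noncoding HOXB-AS1, which overlaps HOXB2 on the opposite strand, had 117 and 136 counts in PANC-1 cells and none in SW1990 cells. Whether the counting used strand is not given in the sources used here, so reads of a gene and its antisense partner cannot be told apart, a limit that holds for 19 of the 39 members.

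The other 5 tested HOXB genes were not called between the lines. HOXB4, used to expand blood stem cells, was at 11.05 and 6.83 FPKM in SW1990 and at 12.06 and 7.90 FPKM in PANC-1 cells (log2 difference -0.34, SE 0.15, adjusted p = 0.139). HOXB5 was at 21.1 and 11.3 FPKM in SW1990 and at 14.2 and 18.8 FPKM in PANC-1 cells, so that the order of the lines differed between unirradiated and irradiated cells. The same held for HOXB7, with 31.7 and 20.6 FPKM against 22.03 and 22.8 FPKM.

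HOXB8 was at 40.3 and 22.4 FPKM in SW1990 and at 13.7 and 12.7 FPKM in PANC-1 cells (log2 difference 0.75, SE 0.31, adjusted p = 0.11). HOXB13, the prostate and hindgut gene at the far end of the cluster, was at 1.37 and 1.23 FPKM in SW1990 and at 0.995 and 1.48 FPKM in PANC-1 cells (adjusted p = 0.881). HOXB1, at the opposite end, had no read except 2 counts in irradiated PANC-1 cells. HOXB3 to HOXB9 thus reached 1 FPKM in all 4 libraries.

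HOX clusters also carry microRNA genes. miR-196 is encoded in the HOXB cluster (MIR196A1), the HOXC cluster (MIR196A2) and the HOXA cluster (MIR196B), and HOXB8 mRNA is its classical target. The mature sequences are given from RefSeq (GRCh38.p14) with the seed, bases 2 to 8, in capitals, and below them the stretch of the HOXB8 3′ UTR most complementary to miR-196a, with complementary bases in capitals.

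miR-196a-5p: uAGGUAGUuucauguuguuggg
miR-196b-5p: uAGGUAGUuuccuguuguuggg
HOXB8 site: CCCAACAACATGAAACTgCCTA

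The site lies at chr17:48612770-48612791 of GRCh38 on the minus strand, and 21 of its 22 bases were complementary to miR-196a without gaps. In the other 38 members the best stretch of a 3′ UTR had between 11 and 15 such bases. A full complement of the 7 seed bases was found in the 3′ UTR of 9 members, among them HOXA7 with 4, HOXA9 with 2 and HOXC8 with 2 matches, and not in that of HOXB8. In the count table the MIR196A1 row had 44, 28, 14 and 13 counts in the order SW1990, irradiated SW1990, PANC-1, irradiated PANC-1. In the same order the MIR196A2 row had 0, 2, 9 and 21 counts and the MIR196B row 2, 1, 0 and 0 counts. These rows hold reads over the hairpin loci, which lie inside longer HOX transcripts, and the mature microRNAs were not measured in these libraries.

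The HOXD cluster was the quiet one. HOXD3 was its highest gene, with 2.09 and 1.01 FPKM in SW1990 and 0.0728 and 0.151 FPKM in PANC-1 cells (11.8-fold by reads, counting interval 5.47 to 30.4, adjusted p = 0.0185), although 62.2% of its exonic bases also belong to the locus AC009336.2. HOXD9 was at 1.20 and 0.927 FPKM in SW1990 cells and had no read in PANC-1 cells, at least 31.9-fold higher. HOXD8 and HOXD10 had 34 and 30 counts over both SW1990 libraries and none in PANC-1 cells, at least 12.2-fold and 10.75-fold higher. HOXD1 and HOXD11 were seen in 1 SW1990 library each, with 6 and 12 counts. HOXD4, HOXD12 and HOXD13 had no read in any library, which at a floor of 3 counts allows a level of up to 0.168 CPM (counts scaled to the library total) in the shallowest library. The noncoding HAGLR, which runs from HOXD1 on the opposite strand, had 146 and 147 counts in SW1990 and 0 and 3 counts in PANC-1 cells (105-fold by reads, counting interval 35.6 to 512).

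Set out by paralogue number, the lines differed in which cluster supplied numbers 10, 11 and 13. At number 13 the sum was 12.4 FPKM in unirradiated SW1990 and 7.60 FPKM in unirradiated PANC-1 cells, led by HOXA13 in SW1990 and by HOXC13 in PANC-1 cells. Number 10 reached 8.81 FPKM in SW1990, led by HOXA10, and 44.6 FPKM in PANC-1 cells, where it was all HOXC10. Number 11 reached 6.82 FPKM, led by HOXA11, and 2.86 FPKM, led by HOXC11. From number 3 to number 9 a HOXB gene led in both lines. Number 12 was at or below 0.13 FPKM in all 4 libraries.

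**Figure D3:**
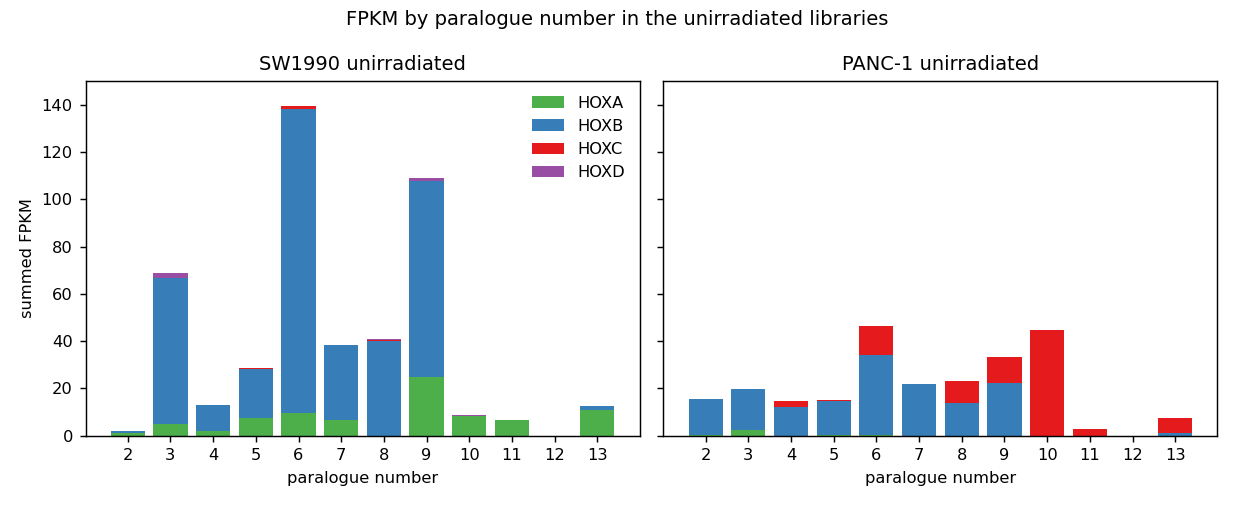
Summed FPKM by paralogue number, from 2 to 13, in the unirradiated library of each line, coloured by cluster. Numbers 3 to 9 are mostly HOXB in both lines, and numbers 10, 11 and 13 are mostly HOXA in SW1990 and HOXC in PANC-1 cells.

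The second question was how the irradiated library of a line differed from the unirradiated one, tested gene by gene on the reads (edgeR exact test at dispersion 0), where calls needed a q-value under 0.001 together with a fold of more than 2. In SW1990 cells 4.13% of 15731 genes were called, and 1 of 22 tested HOX genes, HOXA4, which reached 1 FPKM only in the unirradiated library. HOXA4 had 78 counts in the unirradiated and 30 in the irradiated library, a log2 change of -1.39 (95% counting interval -2.04 to -0.76, q = 2.24e-05). It shares 31% of its exonic bases with AC004080.6, a locus that had 0 and 17 counts. Summed over HOXA4 and the 4 other genes linked to it by shared exonic bases (HOXA3, HOXA6, AC004080.5 and AC004080.6), the change was -0.42 (-0.62 to -0.23), under the fold limit.

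Below the fold limit, several HOXB genes moved one way in SW1990 cells. By q-value alone, 9 of the 22 were lower after radiation, beside 11.8% of all genes tested, and 0 were higher, beside 14.4% of all genes tested. The 9 were HOXA4, HOXA6, HOXA13, HOXB4, HOXB5, HOXB6, HOXB7, HOXB8 and HOXB9. The 22 tested had a median log2 change of -0.49, with 19 lower and 3 higher, beside a median of -0.01 over all genes tested. Like HOXA4, HOXB2 and HOXD9 passed the limit of 1 FPKM only through the unirradiated library.

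HOXB9 had 4695 counts in the unirradiated and 2728 in the irradiated SW1990 library, a log2 change of -0.79 (-0.86 to -0.72). HOXB6 went from 3558 to 2148 counts (-0.73, interval -0.81 to -0.66). HOXB5 went from 945 to 515 counts (-0.88, interval -1.04 to -0.73). The neighbours HOXB8 (827 and 463 counts, -0.84), HOXB7 (811 and 534 counts, -0.61) and HOXB4 (913 and 575 counts, -0.67) were lower as well. HOXB3, by contrast, had 2048 and 1843 counts, a change of -0.16 (-0.25 to -0.07, q = 0.00221). HOXB2 had 38 and 13 counts (-1.55, interval -2.59 to -0.61, q = 0.00218) and HOXB13 105 and 96 counts (-0.14, interval -0.55 to 0.28). Summed over the cluster the HOXB counts were 13940 and 8915, a change of -0.65 (-0.69 to -0.61).

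Of the HOXA genes of SW1990 cells, HOXA13 had 1067 and 666 counts (-0.69, interval -0.83 to -0.55) and HOXA6 192 and 124 counts (-0.64, interval -0.98 to -0.30). HOXA9 had 706 and 619 counts (-0.20, interval -0.35 to -0.04), HOXA11 333 and 330 counts (-0.02) and HOXA7 254 and 248 counts (-0.04). HOXA10 had 294 and 342 counts (0.21, interval -0.02 to 0.44) and HOXA5 268 and 355 counts (0.40, interval 0.17 to 0.63, q = 0.00259). HOXA3 (197 and 188 counts) and HOXA2 (45 and 45 counts) had intervals that held 0. Summed over HOXA the change was -0.21 (-0.28 to -0.14). HOXD3 had 51 and 26 counts (-0.98, interval -1.72 to -0.27, q = 0.0163), HOXD9 50 and 39 counts and HOXC6 62 and 64 counts.

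In PANC-1 cells 4.7% of 15159 genes were called and 2 of 19 tested HOX genes, HOXC4 higher and HOXB6 lower. HOXC4 had 87 counts in the unirradiated and 201 in the irradiated library, a log2 change of 1.34 (0.97 to 1.72, q = 5.79e-13). In the same libraries the overlapping locus AC012531.2 went from 103 counts to 1 and AC012531.3 from 0 to 57, and both were called, each having reached 1 FPKM only in the library where it was high. Summed over the chain of HOXC4, HOXC5, HOXC6, HOXC9, HOXC10 and these loci, the counts were 2634 and 2999 and the change was 0.32 (0.24 to 0.39), under the fold limit. HOXB6 had 1397 and 583 counts, a change of -1.13 (-1.27 to -0.99, q = 2.04e-60). By FPKM its change was -0.63, and summed over the genes linked to it by shared exonic bases (HOXB3, HOXB4, AC103702.1 and MIR10A) it was -0.64, both under the fold limit.

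By q-value alone, 4 of the 19 were lower in PANC-1 cells, beside 19.3% of all genes tested, and 5 were higher, beside 15.3% of all genes tested. The lower ones were HOXB genes, HOXB6 among them. HOXB9 had 1677 and 892 counts (-0.78, interval -0.90 to -0.66) and HOXB4 1310 and 743 counts (-0.69, interval -0.82 to -0.56). HOXB3 had 957 and 733 counts (-0.25, interval -0.40 to -0.11), but 17.2 and 20.3 FPKM. HOXB2 had 645 and 487 counts (-0.28, q = 0.00363) and did not pass.

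The 5 higher ones were HOXB5 and 4 HOXC genes. HOXB5 had 837 and 961 counts (0.33, interval 0.19 to 0.47). HOXC13 had 463 and 691 counts (0.71, interval 0.54 to 0.88), HOXC11 263 and 349 counts (0.54, interval 0.30 to 0.77) and HOXC10 1207 and 1539 counts (0.48, interval 0.37 to 0.59). The fourth was HOXC4. Without passing, HOXC9 had 472 and 499 counts (0.21), HOXC8 517 and 504 counts (0.09), HOXC6 725 and 648 counts (-0.03) and HOXC5 40 and 54 counts (0.56). HOXB7 had 844 and 761 counts (-0.02), HOXB8 383 and 410 counts (0.23, but -0.11 by FPKM) and HOXB13 100 and 129 counts (0.50). HOXA3 had 73 and 90 counts (0.43). The 19 tested had a median of 0.23, with 12 higher and 7 lower, beside -0.02 over all genes tested. HOXB13 and HOXC5 passed the limit of 1 FPKM only through the irradiated library. Summed by cluster, HOXC changed by 0.38 (0.32 to 0.44) and HOXB by -0.39 (-0.43 to -0.34).

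Of the 11 HOX genes tested in both lines, 3 were lower in both by q-value alone, HOXB4, HOXB6 and HOXB9, beside 4.6% of the 13228 genes tested in both. The difference of the response between the lines was tested on the reads of the 4 libraries by the interaction of line and radiation, where 6.22% of 17662 genes were called. Among 30 HOX genes it called 2, near that background. These were HOXB5, with a difference of -1.19 (SW1990 minus PANC-1, log2, q = 2.51e-29), and HOXB8, with -1.05 (q = 2.29e-14). Computed from FPKM, the differences were -1.31 for HOXB5 and -0.74 for HOXB8, the latter under the fold limit. HOXB6, the neighbour of HOXB5, differed by 0.42 by reads (q = 1.75e-06) but by -0.28 from FPKM, so that its direction turned with the measure, and HOXB7 by -0.57 (q = 8.92e-07), neither past the fold limit. HOXB9 and HOXB4 differed by 0.01 and 0.03 by reads and by -0.11 and -0.08 from FPKM.

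With the lines as the only replicates of radiation, the fit of 4 libraries called no gene at all at an adjusted p below 0.05 (edgeR, 0% of 18180 genes). At an unadjusted p below 0.05 it held 833 genes (4.58% of those tested), among them 3 of the 32 tested HOX genes (9.38%). HOXB9 had a log2 change of -0.77 (SE 0.13), HOXB6 of -0.91 (SE 0.17) and HOXB4 of -0.67 (SE 0.15), each with an adjusted p of 0.936. With DESeq2 in its place 39 of 18180 genes were called. Among them were 2 of 32 HOX genes, HOXB6 (adjusted p = 0.0398) and HOXB9 (adjusted p = 0.00456). In the edgeR fit, the coefficient of variation common to all genes was 0.218.

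Other transcripts within the cluster spans were looked at as well. Of 24 named noncoding RNAs, 15 were tested between the lines, 7 were called higher in SW1990 and 5 higher in PANC-1 cells (21.4% and 22.2% of all genes), and none was called after radiation in either line (8 and 9 tested). The most abundant by FPKM in SW1990 cells were MIR196A1, a hairpin row, and HOTTIP. HOXA10-AS (138 and 95 counts) and HOXA11-AS (82 and 70 counts) went with the SW1990 HOXA genes, and HOXC-AS3 (86 and 67 counts) and HOXC-AS2 (71 and 42 counts) with the PANC-1 HOXC genes. Taking every row inside the spans, a set added after the values were seen, the long noncoding LINC02086 between HOXB9 and HOXB13 was the row called after radiation in SW1990 cells, with 2283 and 1129 counts (-1.02). It had 96 and 79 counts in PANC-1 cells. Of 13 coding genes beside the HOX genes, PRAC1 and PRAC2 between HOXB9 and HOXB13 included, 9 were tested between the lines. Of these, 2 were called higher in SW1990 (EVX1 and SKAP1) and 2 higher in PANC-1 cells (SKAP2 and CALCOCO1), near the 21.4% and 22.2% of all genes. None of the coding neighbours was called after radiation.

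HOX proteins bind DNA together with TALE homeodomain partners of the PBX, MEIS and PKNOX families. Of 11 such genes, TGIF genes included, 10 were tested between the lines, 3 were called higher in SW1990 and 6 higher in PANC-1 cells (21.4% and 22.2% of all genes). MEIS1 had no read in SW1990 cells and 41 and 50 counts in PANC-1 cells. PBX3 was at 4.18 and 3.86 FPKM in SW1990 and at 14.6 and 9.58 FPKM in PANC-1 cells (log2 difference -1.78). MEIS2 followed the same order (log2 difference -1.70), as did MEIS3 (-3.28), PBX2 (-0.98) and TGIF2 (-1.91), while TGIF1, the most abundant of the list, was higher in SW1990 (0.87), as was PKNOX1 (1.36). After radiation, TGIF2 rose (37 and 221 counts, 2.57, but 0.70 by FPKM, under the fold limit) in the SW1990 libraries, and none of 8 tested was called in PANC-1 cells.

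Of the 6 ParaHox genes, the sister cluster of HOX, 3 were tested between the lines and all 3 were called higher in SW1990 cells (21.4% of all genes), while GSX1, GSX2 and CDX4 had no read in any library. CDX2, the intestinal master regulator, was at 43.6 and 35.0 FPKM in SW1990 and at 0.0313 and 0.0951 FPKM in PANC-1 cells (520-fold by reads, counting interval 310 to 952, adjusted p = 0.000804). CDX1 had 111 and 75 counts in SW1990 and none in PANC-1 cells, at least 66.7-fold higher. PDX1, the pancreatic progenitor factor, had 214 and 221 counts against 0 and 2 (234-fold by reads, counting interval 64.3 to 1937). None of these 3 was called after radiation in SW1990 cells.

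Regulators of HOX clusters were compared between the lines in the same fit. All 31 Polycomb genes were tested, 7 were called higher in SW1990 and 5 higher in PANC-1 cells (21.4% and 22.2% of all genes), with a list median of 0.04 beside 0.00 over all genes. Of the subunits of canonical PRC1, CBX2 (log2 difference 1.81) and CBX8 (1.76) were higher in SW1990, and BMI1 (-0.91) and PHC2 (-1.40) were higher in PANC-1 cells, as was the PRC2 accessory protein PHF1 (-1.65). EZH2, the methyltransferase of PRC2, was at 18.3 and 15.8 FPKM in SW1990 and at 17.4 and 15.4 FPKM in PANC-1 cells (adjusted p = 0.861). SUZ12, its partner, was higher in SW1990 (0.56), as were PCGF5 (1.29), EPOP (1.03), KDM2B (0.88) and RBBP7 (0.85). RBBP4, the most abundant of the list except in irradiated SW1990 cells, was higher in PANC-1 cells (-0.55), as was CBX6 (-0.61). None of the 31 was called after radiation in either line.

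All 22 Trithorax genes and partners were tested between the lines, with 6 called higher in SW1990 and 4 higher in PANC-1 cells, beside 21.4% and 22.2% of all genes. MLLT3, a reader protein that partners KMT2A in leukaemia fusions, was at 13.1 and 8.74 FPKM in SW1990 and at 0.48 and 0.672 FPKM in PANC-1 cells (log2 difference 3.46, adjusted p = 0.001). PSIP1, which tethers KMT2A to chromatin, was higher in SW1990 by 1.69, and WDR5 (0.90), ASH2L (0.89), DOT1L (0.73) and CTCF (0.63) by less. DPY30 (-1.01), KMT2B (-0.62), KMT2E (-0.60) and ASH1L (-0.52) were higher in PANC-1 cells. KMT2A itself was at 25.7, 27.0, 28.1 and 30.9 FPKM (adjusted p = 0.12), and KMT2D was at 40.0, 41.5, 28.7 and 37.1 FPKM. After radiation AFF1 fell in the PANC-1 libraries (1295 and 566 counts, -1.06, but -0.95 by FPKM, under the fold limit), and none of 22 was called in SW1990 cells.

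Retinoic acid switches on anterior HOX genes in the embryo. Of 18 genes of its synthesis, sensing and breakdown, 12 were tested between the lines, 3 were called higher in SW1990 (RARG, RXRA and RDH10) and 4 higher in PANC-1 cells (ALDH1A3, DHRS3, CRABP2 and STRA6), beside the same 21.4% and 22.2% of all genes. The enzyme ALDH1A3 was at 3.53 and 6.19 FPKM in SW1990 and at 27.2 and 34.2 FPKM in PANC-1 cells (log2 difference -2.95, adjusted p = 0.00143). CRABP2, which carries retinoic acid in the cell, was the most abundant of the list, with 26.3 and 40.3 FPKM in SW1990 and 117 and 120 FPKM in PANC-1 cells (-1.73). None of the 9 tested in each pair was called after radiation.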

How the data were processed

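The deposited table held counts and FPKM values of each gene for 4 libraries. Per the labels, RNA was extracted with Trizol, and the submitters' processing notes name Trimmomatic 0.36, HISAT2 2.0, StringTie 1.3.3b and GRCh38. The counts were deposited by the authors as whole numbers, not normalized; the counting tool and its strand setting are not given in the sources used here. The FPKM values were deposited by the authors as scaled to transcript length and library size. The library kit is one for mRNA, while the labels describe removal of ribosomal RNA. Rows that name no gene (1089, between 0.453% and 0.635% of counts) were left out.

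The 39 HOX genes, the gene lists and the tests were chosen with earlier results of these data known. All named lists were compiled by hand, and the text names only part of their called and of their most abundant members. All tests were fitted on the whole table. The lines were compared with edgeR 4.0.16 (R 4.3.3), quasi-likelihood test with TMM scaling, genes kept by filterByExpr and Benjamini-Hochberg adjustment, which leaves 1 residual degree of freedom. Within a line, edgeR's exactTest was run at dispersion 0 on genes with at least 1 FPKM in 1 library of the pair. Values of 0 were set to 0.01 for calls, and no fold is printed where a library of the pair had 3 counts or fewer. In PANC-1 cells, adjusted counts below 0 in that function were set to 0. Intervals of changes are exact (Clopper-Pearson, 95%), and like the floor of 3 counts they cover counting error only. The interaction of line and radiation and the sums over genes sharing exonic bases (GENCODE 29) were added after seeing the data. limma 3.58.1 and DESeq2 1.42.0 served as alternatives. Scripts were tested on simulated data. Counts and sums over the lists hold all members, while the single values of a few genes are not reported here. Since each condition is 1 library, the pair of libraries of a line stood as its replicates, and its spread holds the effect of radiation not taken up by the common term.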

Additional observations from a re-analysis of the deposited data

Results flagged for a closer look

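Of the HOX genes, 2 were marked because their response to radiation differed between the lines by a test of the difference itself, which called 6.22% of all genes and 2 of 30 HOX genes, near that share. HOXB5 went from 945 to 515 counts in SW1990 and from 837 to 961 in PANC-1 cells, a difference of log2 responses of -1.19. HOXB8 went from 827 to 463 and from 383 to 410 counts, a difference of -1.05. Computed from FPKM, the differences were -1.31 for HOXB5 and -0.74 for HOXB8, the latter under a fold of 2. The test compares reads of single libraries, and the spread between cultures was not measured.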

How the results depend on the processing

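The limits of these data come first from 1 library per condition. A spread between replicates was also assumed, with a coefficient of variation of 0.2 or 0.4. In SW1990 cells 0 of 22 HOX genes were then called, beside 99 and 15 of all 15731 genes. In PANC-1 cells 0 of 19 HOX genes were called, beside 103 and 10 of all 15159 genes. With a fold limit of 1.5, 9 HOX genes were called lower in SW1990 (4.05% of all genes), and 3 lower and 2 higher in PANC-1 cells (6% and 5.73%). By FPKM fold, 0 were called lower in PANC-1 cells. For radiation over both lines, DESeq2 called 2 of 32 HOX genes, beside 39 of 18180 genes. Counts of HOX genes called between the lines stayed within 1.5 times under every alternative run, and leaving out 1 library gave 13 to 17 higher in SW1990 and 8 to 10 higher in PANC-1 cells. Among the calls lost with 1 library left out were HOXA3 (without unirradiated PANC-1, 1.14), HOXA4 (without unirradiated SW1990 3.93 or unirradiated PANC-1 3.76), HOXB6 (without unirradiated SW1990 1.27 or irradiated PANC-1 1.24), HOXB9 (without irradiated PANC-1, 1.35), HOXC5 (without unirradiated PANC-1 -3.50 or irradiated PANC-1 -2.91) and HOXD3 (without unirradiated SW1990 2.97 or unirradiated PANC-1 3.27). HOXB8 gained a call without irradiated SW1990 (1.15), by limma on FPKM (pseudocounts 0.1 and 1, 1.18 and 1.13) and in the unirradiated pair (1.28). HOXA2 gained one by limma (1.37 and 0.60), with line as the only term (1.42) and in the unirradiated (1.49) and irradiated (1.37) pairs. In these fits the lone library of a line is assumed to vary like the other line. DESeq2 did not call, among others, HOXA3, HOXC5, HOXD3, HOXD8 and HOXD10, and without a filter on low counts HOXA4, HOXC5, HOXD8 and HOXD10 were not called. Library totals in place of TMM moved the median line difference of all genes to 0.15.

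Genes not called between the lines changed sign in some settings. With 1 library left out, the log2 difference ranged from -0.70 to 0.049 for HOXB4, -0.69 to 0.16 for HOXB5, -0.46 to 0.11 for HOXB7 and -0.31 to 0.21 for HOXB13. In the unirradiated pair alone it was 0.35 for HOXB5, 0.11 for HOXB7 and 0.24 for HOXB13. By limma on FPKM (pseudocounts 0.1 and 1) it was 0.19 and 0.18 for HOXB7 and 0.089 and 0.048 for HOXB13, and with library totals 0.079 for HOXB13. After radiation, FPKM turned the sign of HOXA3 (0.17) and HOXC6 (-0.37) in SW1990, and of HOXA3 (-0.11), HOXB3 (0.24), HOXB7 (0.051), HOXB8 (-0.11) and HOXC6 (0.13) in PANC-1 cells. Library totals gave 0.071 for HOXB7 and 0.058 for HOXC6 in PANC-1 cells. Sums over genes sharing exonic bases, chosen after seeing the data, gave -0.10 for HOXA10 and -0.15 for HOXC6 in SW1990, and 0.32 for HOXC6 in PANC-1 cells. Why these differ was not tested. Radiation over both lines was fitted with line as a term, which pairs the libraries of a line.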
